A study of Homo sapiens with 9 samples.

Results

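The transcriptome of PRMT2 knockout clone 1 was compared with that of wild-type KG-1a cells across all genes. KG-1a is a human acute myeloid leukaemia line of immature, CD34-bearing cells. Clone 1 and the wild type (WT) contributed 3 RNA-seq libraries each, 6 of the 9 libraries of the series, and were chosen by their labels. The other 3 libraries, from a second knockout clone (clone 2), are used below to show where clone 1 stands apart from it or moved alike. They also entered the fit, which estimated the spread from all 9 libraries. The WT cells carried intact PRMT2. Clone 1 was labelled a PRMT2 knockout made with CRISPR/Cas9 and PRMT2-targeting guides, and the same holds for clone 2, which was an independent clone. All cells grew in RPMI medium with fetal bovine serum, were expanded side by side, and were given no drug. Clone 1 is a single clone, and whether the WT cells also came from a single cell is not given in the sources used here. A difference between clone 1 and WT can therefore belong to the loss of PRMT2 or to the clone, and within these 6 libraries the effects cannot be told apart. Separate cultures are not named for the replicates, so p-values may measure only technical spread.

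PRMT2 belongs to the protein arginine methyltransferases, enzymes that add methyl groups to arginine side chains of histones and other proteins. It has a weak catalytic activity of its own, carries an SH3 domain, and is known as a coactivator of nuclear receptors. Methylated arginines on histones are read by proteins that switch transcription on or off.

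Libraries held 28006342 to 40554236 counted read pairs in clone 1 and WT. One library, clone 1 replicate 1, differed in its make-up. Its multimapping pairs came to 13.33%, against 3.86% to 4.51% in the other 8 libraries. The rRNA genes of the mitochondrion, MT-RNR1 and MT-RNR2, were at 13440 and 13862 CPM in it (CPM, counts per 1e6 of the scaled library total), against 44.1 and 30.4 CPM in replicate 2 and 44.6 and 27.6 CPM in replicate 3. Beyond those, MTRNR2L12, a nuclear copy of mitochondrial sequence, was at 104 CPM against 0.372 and 0.706, and RNA5-8SN1 was at 11.9 CPM against 0 and 0.215. With mitochondrial genes set aside, the chi-squared per degree of freedom between this library and the other 2 of the clone was 4.37 and 3.33, close to the 3.56 between those 2. Results are therefore given with this library, and the count of called genes without it is given beside the count with it.

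Most markers of the line were at like levels in both groups. CD34 was at a mean of 626 CPM in WT and 735 CPM in clone 1, the surface sialomucin SPN at 913 and 895, PTPRC (CD45) at 591 and 543, and ANPEP (CD13) at 585 and 615. CD33, at 0.476 and 0.414 CPM, MPO, at 0.183 and 0.168 CPM, and FLT3, at 0.0515 and 0.0207 CPM, were near 0 in both. CEBPA was called lower, from 42.2 to 17.7 CPM. The 10 identity markers summed to 2728 to 2801 CPM in the WT libraries and 2758 to 2874 CPM in clone 1. Of the 6 erythroid markers, HBB, HBA1, HBA2 and EPB42 had no count in either group, and 0 of 6 passed the filter on low counts. The 5 epithelial markers summed to at most 0.522 CPM and the 5 monocyte markers to at most 0.894 CPM in any library of either group.

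Promoters of 3 interferon-responsive genes that fell in clone 1 are printed here because interferon-stimulated genes are among the groups that fell in clone 1. The sequences are RefSeq's (GRCh38.p14), 250 bases before the transcription start, 5′ to 3′ on the gene's strand, in lower case. Capitals mark the letters TTTCNNTTT on either strand, the core of the element bound by interferon-activated STAT and IRF factors (on the opposite strand it reads with A and G in place of T and C). GBP1 lies at chr1:89065209-89065458 on the minus strand, TAP1 at chr6:32853705-32853954 on the minus strand, and EPSTI1 at chr13:42992242-42992491 on the minus strand.
GBP1: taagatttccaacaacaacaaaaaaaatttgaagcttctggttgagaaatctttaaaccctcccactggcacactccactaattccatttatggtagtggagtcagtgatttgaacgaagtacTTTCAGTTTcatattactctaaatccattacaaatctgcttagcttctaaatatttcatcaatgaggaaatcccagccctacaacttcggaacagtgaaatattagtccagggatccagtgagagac
TAP1: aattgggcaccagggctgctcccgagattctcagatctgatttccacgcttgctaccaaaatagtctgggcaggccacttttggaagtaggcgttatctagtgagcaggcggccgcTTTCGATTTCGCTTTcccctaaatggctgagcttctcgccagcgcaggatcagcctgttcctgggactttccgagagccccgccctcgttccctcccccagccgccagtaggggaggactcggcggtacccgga
EPSTI1: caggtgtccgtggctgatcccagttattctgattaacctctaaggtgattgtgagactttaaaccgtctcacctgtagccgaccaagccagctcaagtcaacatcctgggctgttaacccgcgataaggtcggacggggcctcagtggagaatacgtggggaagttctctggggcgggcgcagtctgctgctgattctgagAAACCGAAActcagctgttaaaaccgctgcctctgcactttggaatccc
GBP1 and EPSTI1 held 1 match each and TAP1 held 2 that overlap. These 3 were chosen after their values and matches were seen. The promoters of PSMB9, HLA-B and IRF1, searched in the same way, held 0 matches. Of 11496 tested genes with a promoter in the RefSeq table, 773 (6.72%) held such a match in the same window, and of the 40 interferon-stimulated genes with a promoter, 24 did. A match is a description of the letters, not evidence of a bound site.

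PRMT2 RNA was lower in clone 1 but was not lost. PRMT2 (ENSG00000160310, chromosome 21, 46635595 to 46665124, GRCh38) was at 39.4, 39.0 and 39.8 CPM in the WT libraries and at 21.3, 20.2 and 20.7 CPM in clone 1. The groups did not overlap. Its log2 fold change was -0.93 (SE 0.055, edgeR quasi-likelihood adjusted p = 7.79e-18), short of the fold minimum. RNA of a whole gene does not show which exon was cut or whether protein remained. Per the submitters' design text, both clones had passed tests of DNA, RNA and protein. Among the other measured family members, PRMT1, the main asymmetric methyltransferase, fell by 0.27 and CARM1 by 0.22 on the log2 scale at the adjusted p. No family member passed the fold minimum. Of 11 tested neighbours of PRMT2 on the chromosome, 3 were called lower and 8 were lower at the adjusted p. Over all genes tested the shares were 4.98% and 18.8%. The neighbours called were S100B, a calcium-binding protein, at -2.12, the collagen gene COL6A1 at -1.49 and PCBP3 at -1.06. COL6A1 and PCBP3 lost their calls when some single libraries were left out, to -1.14 for COL6A1 without clone 1 replicate 1 and -0.89 for PCBP3 without clone 1 replicate 2, and COL6A1 also with DESeq2.

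Falls outnumbered rises in clone 1. A gene was called where the Benjamini-Hochberg adjusted p of edgeR's quasi-likelihood test was under 0.05 and the absolute log2 fold change was at least 1. Of 20655 genes tested, 1565 (7.58%) were called, 537 higher (2.6%) and 1028 lower (4.98%). The balance was closer without the fold minimum, where 3598 genes (17.4%) passed as higher and 3877 (18.8%) as lower. The median log2 fold change over all genes was 0.00, its quartiles were -0.20 and 0.18, and the 5th and 95th percentiles were -1.07 and 0.75. Without clone 1 replicate 1, 1624 genes were called, 524 higher and 1100 lower, and 1431 genes were called in the same direction with and without it.

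The share of genes called was highest at low levels. Among genes under 1 CPM on average, 13.6% of 5189 were called, 260 higher and 448 lower. From 1 to 10 CPM the share was 10.4% of 5927 (197 higher, 418 lower), and from 10 to 100 CPM it was 3.13% of 7061 (73 higher, 148 lower). Of the 2478 genes at 100 CPM or more, 21 were called (0.847%), 7 higher and 14 lower. The most abundant RNAs of the cell seldom passed the fold minimum. MYC, for example, was at 703 ± 36.3 CPM in WT and 681 ± 20.6 CPM in clone 1 (SD, n = 3), with a log2 fold change of -0.05 (edgeR adjusted p = 0.406). Protein-coding genes made up 297 of the rises and 723 of the falls among 12754 tested. Of 3885 long non-coding RNAs, 149 rose and 199 fell.

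**Figure D1:**
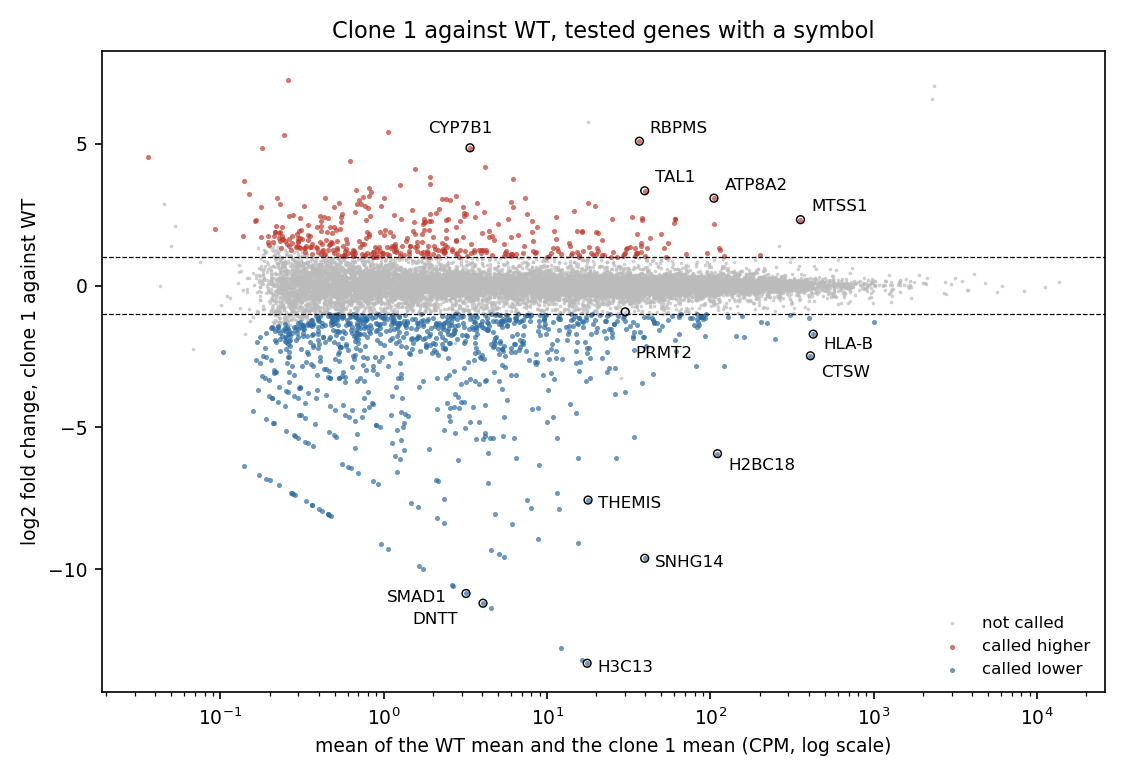
Each point is a tested gene with a symbol, with its mean level in CPM on a log axis (x) and its log2 fold change in clone 1 against WT (y); dashed lines mark the fold minimum and circles the labelled genes. Called falls reach further down than called rises reach up, PRMT2 lies just inside the fold minimum at -0.93, and values of genes with 0 counts in clone 1, such as SMAD1, DNTT and H3C13, depend on the prior count of the fit.

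The largest rise among well-expressed genes was that of RBPMS, an RNA-binding protein of muscle and germ cells. RBPMS was at 1.85, 2.39 and 2.03 CPM in WT and 71.6, 70.5 and 72.1 CPM in clone 1, a log2 fold change of 5.08 (SE 0.081, edgeR adjusted p = 2.03e-37). Counted without regard to strand, the change was 2.06 and still called. In clone 2 it was at 0.994, 0.747 and 0.865 CPM, below all WT libraries, so the clones moved in opposite directions from WT. GREB1, known as an oestrogen receptor cofactor, showed the same opposition. GREB1 was at 1.20, 1.19 and 1.79 CPM in WT, 10.4, 11.6 and 9.70 CPM in clone 1 and 0.461, 0.614 and 0.468 CPM in clone 2. Its log2 fold change in clone 1 was 2.94 (edgeR adjusted p = 2.54e-20).

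Several rises were about as large in clone 2. TAL1, a transcription factor of blood stem and erythroid cells, was at 6.47, 7.36 and 7.55 CPM in WT and 73.5, 67.3 and 75.2 CPM in clone 1, a log2 fold change of 3.34 against 3.24 in clone 2. CYP7B1, an oxysterol hydroxylase, was at 0.261, 0.317 and 0.0616 CPM in WT and 6.40, 6.05 and 7.15 CPM in clone 1 (log2 fold change 4.85, edgeR adjusted p = 2.84e-22). STON2, an endocytic adaptor, stood at 2.80 in clone 1. The clones were not called different for these 3 genes, with log2 differences of clone 1 from clone 2 of 0.10, -0.22 and -0.32.

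Other rises were larger in clone 1 than in clone 2. TUSC3, a subunit of oligosaccharyltransferase, was at 0.574, 0.317 and 0.431 CPM in WT, 6.48, 9.47 and 7.85 CPM in clone 1 and 2.76, 3.20 and 2.59 CPM in clone 2. The clone 1 libraries lay above all others. PLEKHG1, a guanine nucleotide exchange factor, went from 0.852 ± 0.156 to 11.5 ± 0.308 CPM (SD, n = 3), with 5.89 ± 0.590 CPM in clone 2. OTOGL went from 0.785 ± 0.0925 to 5.36 ± 0.232 CPM and was at 2.12 ± 0.278 CPM in clone 2. The log2 difference between the clones was 1.48 for TUSC3, 0.96 for PLEKHG1 and 1.34 for OTOGL, each past the adjusted p and the first and last past the fold minimum. The remaining large rises were those of ANKRD55 at 3.07, SPTB at 2.92, GRIK3 at 2.76, PGAP4 at 2.61, SMPDL3B at 2.58 and the long non-coding RNA TUSC8 at 2.92. Without regard to strand SPTB, the erythrocyte beta spectrin, was at only 0.26 and not called.

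In absolute level, MTSS1 rose most. MTSS1, which bends membranes and binds actin, was at 120, 120 and 116 CPM in WT and 609, 574 and 595 CPM in clone 1 (log2 fold change 2.32, edgeR adjusted p = 2.41e-37). ATP8A2, a phospholipid flippase, was at 21.8 to 22.9 CPM in the 3 WT libraries and 188, 190 and 185 CPM in clone 1. ESAM, a junctional adhesion molecule of endothelium, was at 20.4, 19.4 and 19.8 CPM in WT and 103, 102 and 101 CPM in clone 1. For all 3 the spread within a group was small beside the gap between groups. The Rap GTPase regulator SIPA1 went from 38.3 ± 2.26 to 171 ± 8.40 CPM, the focal adhesion kinase PTK2 from 68.3 ± 2.29 to 162 ± 1.74 CPM, the RNase ZC3H12C from 129 ± 6.13 to 270 ± 3.87 CPM and the calcium channel subunit CACNA2D4 from 64.5 ± 2.36 to 161 ± 8.17 CPM (SD, n = 3 each).

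The falls included genes that were abundant in WT. CTSW, a cathepsin of cytotoxic lymphocytes, was at 725, 642 and 714 CPM in WT and 135, 119 and 120 CPM in clone 1. SMAD6, an inhibitor of BMP signalling, was at 404, 390 and 382 CPM in WT and 109, 105 and 104 CPM in clone 1. All clone 1 libraries were below all WT libraries for these genes. APOL6 went from 319 ± 6.96 to 127 ± 4.50 CPM (SD, n = 3). H2BC18, a histone H2B gene, went from 213, 213 and 226 CPM to 3.22, 3.88 and 3.56 CPM. Histone genes have near-identical copies, so the assignment of their reads is uncertain.

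**Figure D2:**
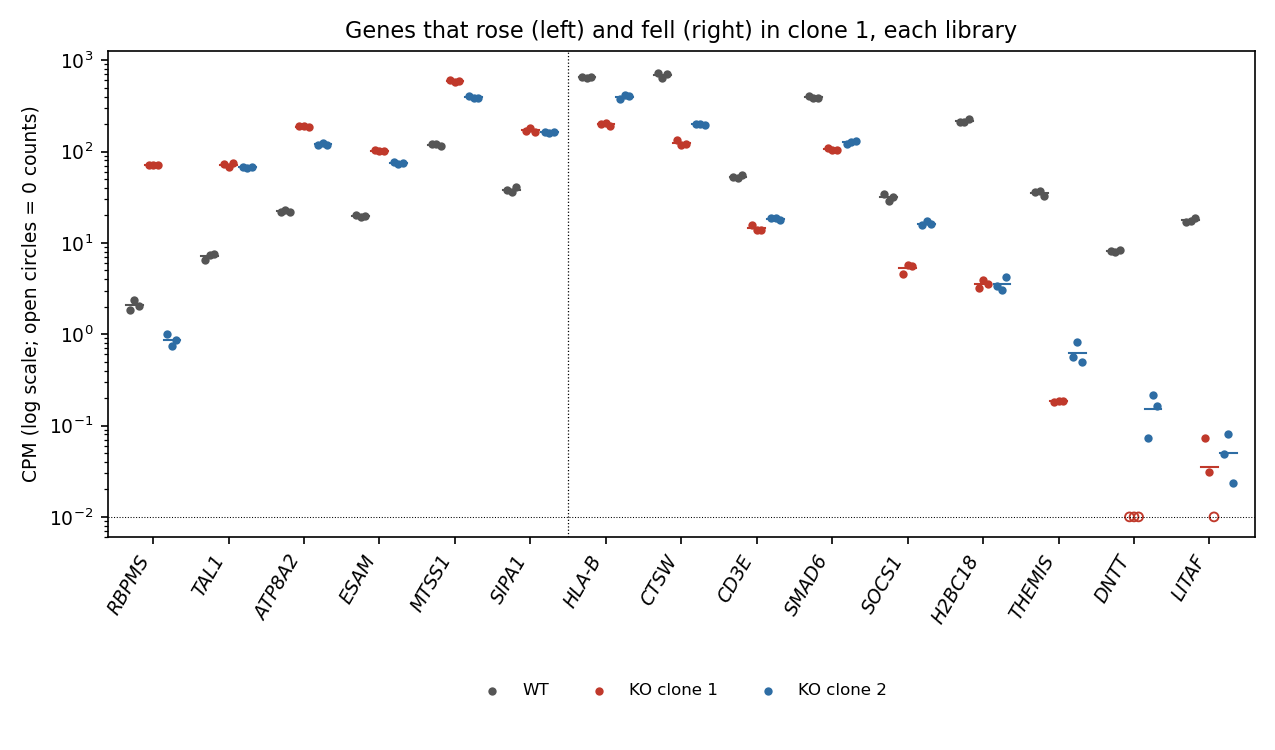
CPM on a log axis (y) of 15 genes (x) in each library of WT, clone 1 and clone 2; points are libraries, bars are group means and open circles at the bottom are libraries with 0 counts. The genes left of the dotted line rose and those right of it fell in clone 1, and RBPMS is the one whose clone 2 libraries lie below WT while clone 1 lies above.

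A set of genes expressed in WT was almost silent in clone 1. By thresholds chosen after the values had been seen, 40 genes with a symbol averaged at least 5 CPM in WT and under 0.3 CPM in clone 1, of which 38 were protein-coding and 8 had no count in any clone 1 library. A single gene, CYP7B1, was the reverse. When counts disregarded strand, 25 of the 40 still met both limits, and 38 of the 39 tested were called lower. The one that was not was NFE2L3, at -0.70. In clone 2, 25 of the 40 were also under 0.3 CPM and 7 were at 1 CPM or more.

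The genes without a count in clone 1 are given with a lower bound on the fall, set against 3 counts over the group. H3C13, a histone H3 gene, was at 34.5, 33.4 and 37.5 CPM in WT and at least 1075-fold lower in clone 1. ATP10A, a flippase of the Prader-Willi and Angelman region, was at 33.4, 32.4 and 32.0 CPM in WT and at least 1001-fold lower. The pseudogene RBMY2QP, whose family has near-identical copies, was at 24.2 CPM and at least 747-fold lower. For CNNM1, with 9.10 CPM in WT, the bound was 280-fold (at least that much lower), and for DNTT, the terminal transferase of early lymphocytes, with 8.11 CPM, it was 249-fold. SMAD1 was at least 196-fold, SLC30A4, a zinc transporter, at least 163-fold, and SLC16A10, an aromatic amino acid transporter, at least 160-fold lower. Without regard to strand the fitted log2 fold changes were -4.43 for CNNM1, -6.94 for SLC30A4 and -8.50 for SLC16A10, so the bounds of CNNM1 and SLC30A4 hold for the stranded counts only. Of these 8 genes, SMAD1 is the one that clone 2 expressed above WT.

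Other genes of this set had a few counts left. NAV2, a neuron navigator, had 1 count in clone 1 against 10.8 CPM in WT, a ratio of 1003 (95% counting interval 180 to 39640), and 4.41 CPM in clone 2. DHX32 had 1 count against 10.2 CPM, a ratio of 933 (167 to 36873), but its log2 fold change was only -1.81 without regard to strand. LITAF, a protein of late endosomes, had 3 counts against 17.7 CPM, a ratio of 541 (185 to 2623), and the magnesium transporter gene NIPA1 3 counts against 9.62 CPM, a ratio of 296 (101 to 1435). These ratios rest on very few counts in clone 1, and the intervals cover counting error only. THEMIS, a signalling adaptor of T cell development, was at 36.0, 37.4 and 32.9 CPM in WT and 0.183, 0.186 and 0.184 CPM in clone 1. The long non-coding RNA SNHG14 was at 77.3, 80.7 and 79.2 CPM in WT and 0.0732, 0 and 0.215 CPM in clone 1, and its log2 fold change was -1.79 without regard to strand. APBB1IP, which links Rap1 to actin and integrins, fell from 23.6 ± 1.10 to 0.0980 ± 0.0926 CPM. HAPLN3 and MFGE8, next to each other on chromosome 15, were both in the set, from 8.57 to 0.0653 CPM and from 7.93 to 0.176 CPM. The serine synthesis enzyme PHGDH fell from 10.5 to 0.262 CPM, the phospholipase PLCG2 from 5.08 to 0.270 CPM, the leukocyte adhesion protein JAML from 8.17 to 0.203 CPM and the transcription factor KLF3 from 8.57 to 0.133 CPM.

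Clone 1 was then set against clone 2 for each gene. Between the clones, 255 genes were called higher in clone 1 (1.23% of those tested) and 327 lower (1.58%). Without the fold minimum, 2593 genes (12.6%) passed as higher in clone 1 and 2762 (13.4%) as lower. Genes were named where clone 1 was called against WT and against clone 2 in the same direction, where clone 2 was within 0.5 of WT on the log2 scale, and where some group reached 5 CPM. Only 5 genes met this rule as rises, while the 10 largest falls were named. The lack of change in clone 2 is part of the rule and not a finding.

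Among the falls, SMAD1, a receptor-activated effector of BMP signalling, was at 5.95, 6.90 and 6.29 CPM in WT, at 0 counts in all 3 clone 1 libraries, and at 7.35, 8.91 and 8.49 CPM in clone 2. ARNTL (BMAL1), the core clock activator, was at 8.79, 9.02 and 8.29 CPM in WT, 0.293, 0.0931 and 0.245 CPM in clone 1 and 6.57, 6.11 and 6.22 CPM in clone 2. EPB41L5, a FERM domain protein of epithelial polarity, was at 15.8, 15.4 and 15.2 CPM in WT, 0.878, 0.683 and 0.736 CPM in clone 1 and 20.1, 19.5 and 20.3 CPM in clone 2. In these 3 genes clone 1 lay far below the other 6 libraries, a pattern the naming rule selects for. The WT and clone 2 libraries did not overlap in any of the 3. Without regard to strand the falls of ARNTL and EPB41L5 were smaller, at -1.65 and -2.56 on the log2 scale against -5.38 and -4.34, and were still called.

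SELENON, a selenoprotein of the endoplasmic reticulum, went from 16.9 ± 1.42 CPM in WT to 1.90 ± 0.330 CPM in clone 1, with 22.8 ± 1.23 CPM in clone 2 (SD, n = 3 each). GLDC, the glycine decarboxylase of the mitochondrial cleavage system, was at 11.3 ± 0.355, 2.95 ± 0.284 and 11.5 ± 0.399 CPM in the same order. TGIF1, a repressor of SMAD-driven transcription, was at 4.44 ± 0.298, 1.21 ± 0.325 and 5.31 ± 0.191 CPM. The platelet integrin chain ITGB3, the cadherin CDH6, the GTPase regulator ARHGAP10 and the lipoprotein receptor LRP1B fell by 2.35, 2.18, 2.08 and 1.73 on the log2 scale in clone 1. The log2 difference of clone 1 from clone 2 was -3.57 for SELENON, -1.91 for ITGB3 and between these values for the other 5.

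The rises were smaller. TMIGD2, a receptor of T and NK cells, was at 3.16, 3.02 and 2.71 CPM in WT, 10.4, 10.2 and 10.2 CPM in clone 1 and 3.20, 3.26 and 2.83 CPM in clone 2. CLIC4, an intracellular chloride channel protein, was at 27.1, 30.0 and 31.2 CPM in WT, 72.3, 73.0 and 76.1 CPM in clone 1 and 26.1, 26.3 and 25.2 CPM in clone 2. TNFRSF10A, a death receptor for TRAIL, was at 19.2, 21.5 and 21.3 CPM in WT, 53.9, 54.9 and 53.5 CPM in clone 1 and 24.2, 24.5 and 26.2 CPM in clone 2. The clone 1 libraries of all 3 lay above both other groups. CDCP1 went from 3.38 ± 0.363 to 7.82 ± 0.880 CPM (SD, n = 3). The antisense RNA XXYLT1-AS2 rose by 1.13 on the log2 scale, and that call was lost without regard to strand (0.77).

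**Figure D3:**
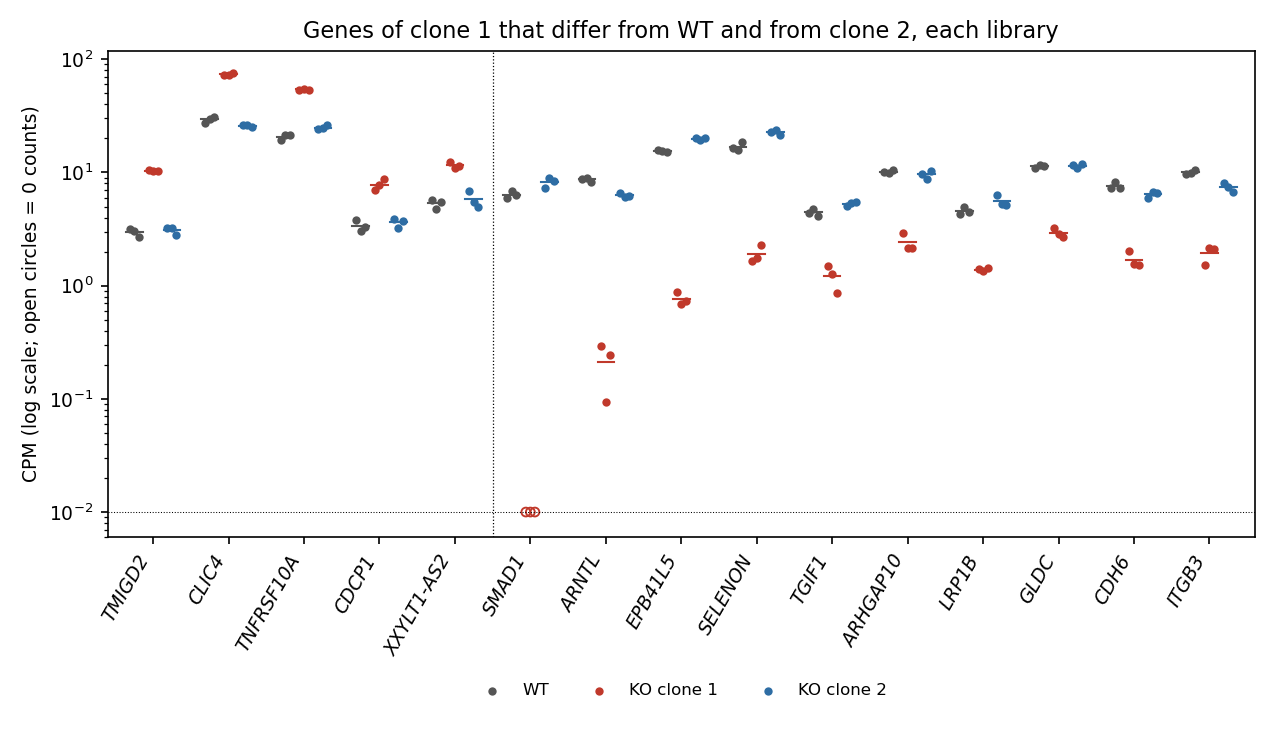
CPM on a log axis (y) of the 15 genes (x) named for a difference of clone 1 from both WT and clone 2; points are libraries, bars are group means and open circles are libraries with 0 counts. WT and clone 2 lie close together for each gene, as the rule required, and clone 1 lies above them for the 5 genes on the left and below them for the 10 on the right.

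HSPB1, chosen after its values were seen, moved in opposite directions in the clones. This small heat shock protein was at 5.53, 3.56 and 4.71 CPM in WT, 17.8, 17.1 and 17.3 CPM in clone 1 and 1.67, 1.36 and 1.61 CPM in clone 2. IKZF3, a lymphoid transcription factor, did the opposite. IKZF3 was at 2.35, 2.51 and 2.83 CPM in WT, 0.659, 0.559 and 0.920 CPM in clone 1 and 4.80, 4.64 and 4.18 CPM in clone 2. The log2 difference between the clones was 3.48 for HSPB1 and -2.66 for IKZF3 (edgeR adjusted p = 4.59e-24 and 6.77e-15).

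Gene lists are described by counts beside the shares over all genes given above (2.6% called higher, 4.98% called lower) and by their median beside the overall median of 0.00. Genes of T and NK cells, part of which KG-1a cells express, were lower in clone 1. Of 28 tested, 15 were called lower and 0 higher, 20 were lower and 0 higher at the adjusted p, and the median was -1.07 (-0.76 in clone 2). The CD3 chains CD3D and CD3E kept part of their level. CD3D was at 286, 284 and 300 CPM in WT and 119, 115 and 123 CPM in clone 1. CD3E was at 52.1, 51.8 and 54.7 CPM in WT and 13.8 to 15.8 CPM in clone 1. CD247, the zeta chain, was at 29.2, 26.7 and 27.9 CPM in WT and 3.84, 3.35 and 3.19 CPM in clone 1. None of these groups overlapped. CD3G fell by 3.37, the kinase LCK by 2.55, the receptor chain IL2RB by 2.76 and the granule protease GZMA by 2.71. CD8A, at 0.546 CPM in WT, had no count in clone 1, and its fitted log2 fold change was -2.86 without regard to strand. The T and NK cell markers used as a check summed to 554 to 586 CPM in WT and 262 to 267 CPM in clone 1, and the part of a change in cell makeup in this fall was not tested. In bulk RNA, fewer cells of a kind and less RNA per cell cannot be told apart. PRF1 (perforin) and TRBC2, at 49.1 and 36.2 CPM in WT and 46.9 and 30.4 CPM in clone 1, were not called.

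Genes of MHC class I presentation were lower throughout. All 19 tested members were lower at the adjusted p, and 3 were called. HLA-B was at 654, 642 and 661 CPM in WT and 202, 205 and 190 CPM in clone 1, a log2 fold change of -1.71 (SE 0.040, edgeR adjusted p = 8.35e-32), and was at 374, 418 and 405 CPM in clone 2. TAP1, which pumps peptides into the endoplasmic reticulum, was at 118, 111 and 116 CPM in WT and 42.3, 45.0 and 42.8 CPM in clone 1. HLA-C fell from 411 ± 18.9 to 199 ± 5.99 CPM. The remaining members moved less. The light chain B2M went from 1525 ± 59.7 to 1016 ± 13.8 CPM and NLRC5, the transactivator of class I genes, from 442 ± 14.8 to 354 ± 12.2 CPM. HLA genes are near-identical in part and vary between people, so reads may have been split among them. The list's median was -0.50 in clone 1 and -0.34 in clone 2, and 13 of the 19 were lower in clone 1 than in clone 2 at the adjusted p, which 13.4% of all genes were.

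Interferon-stimulated genes were lower in most cases. Of 50 tested, 14 were called lower and 1 higher, and 36 were lower and 2 higher at the adjusted p (median -0.52). GBP1, an interferon-induced GTPase whose promoter is printed above, was at 91.9, 96.1 and 99.1 CPM in WT and 26.1, 24.1 and 26.2 CPM in clone 1. EPSTI1 was at 35.7, 38.1 and 36.5 CPM in WT and 13.7, 15.1 and 14.1 CPM in clone 1. IFI44L was at 27.3, 27.9 and 26.7 CPM in WT and 6.62, 7.26 and 6.93 CPM in clone 1. All clone 1 libraries were below all WT libraries for these 3 genes. SAMHD1, a nucleotide hydrolase that restricts viruses, was at 8.49 ± 0.253 CPM in WT, 1.03 ± 0.176 in clone 1 and 3.13 ± 0.241 in clone 2. The exception was IFITM3, which blocks virus entry and rose from 6.31, 5.90 and 6.75 CPM to 23.9, 22.8 and 25.6 CPM. Among the factors that carry the interferon signal, IRF1 went from 108 ± 3.56 to 62.4 ± 3.20 CPM, STAT2 from 29.5 ± 1.48 to 22.3 ± 1.02 CPM and IRF9 from 9.59 ± 0.452 to 6.75 ± 0.344 CPM, all lower at the adjusted p and below the fold minimum.

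Cytokines and their receptors held more calls lower than higher. Of 27 chemokines and cytokines tested, 11 were called lower and 0 higher (median -0.81). IL32, a cytokine of lymphocytes, was at 566, 528 and 574 CPM in WT and 243, 255 and 252 CPM in clone 1. LIF was at 8.69, 7.56 and 8.10 CPM in WT and 0.0732, 0.217 and 0.338 CPM in clone 1. CCL5 fell by 4.79, XCL1 by 2.46 (its reads may be shared with the near-identical XCL2), and CSF2, which encodes GM-CSF, by 2.03 on the log2 scale. Of 47 receptors tested, 15 were called lower and 3 higher. IL10RA was at 17.8, 17.5 and 17.7 CPM in WT and 3.11, 3.04 and 2.76 CPM in clone 1. CXCR4 fell from 0.705 to 0.0718 CPM, and CXCR6, at 0.402 CPM in WT, had no count in clone 1 and was not called without regard to strand (-0.28). The receptors called higher were the death receptors TNFRSF10A and TNFRSF10B and the cytokine receptor chain CSF2RB, and TNFRSF10B, at 1.00, fell short of the fold minimum in several alternatives. In the list of SOCS and JAK-STAT genes, 3 of 29 were called, all lower, and the median was -0.06. SOCS1 and SOCS3, feedback inhibitors of cytokine receptors, were the members of the SOCS family that were called. SOCS1 was at 33.9, 28.4 and 32.0 CPM in WT, 4.57, 5.71 and 5.52 CPM in clone 1 and 15.7 to 17.2 CPM in clone 2. SOCS3 was at 23.0 ± 1.05 CPM in WT, 9.75 ± 0.430 in clone 1 and 23.4 ± 0.894 in clone 2, and so differed from both.

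**Figure D4:**
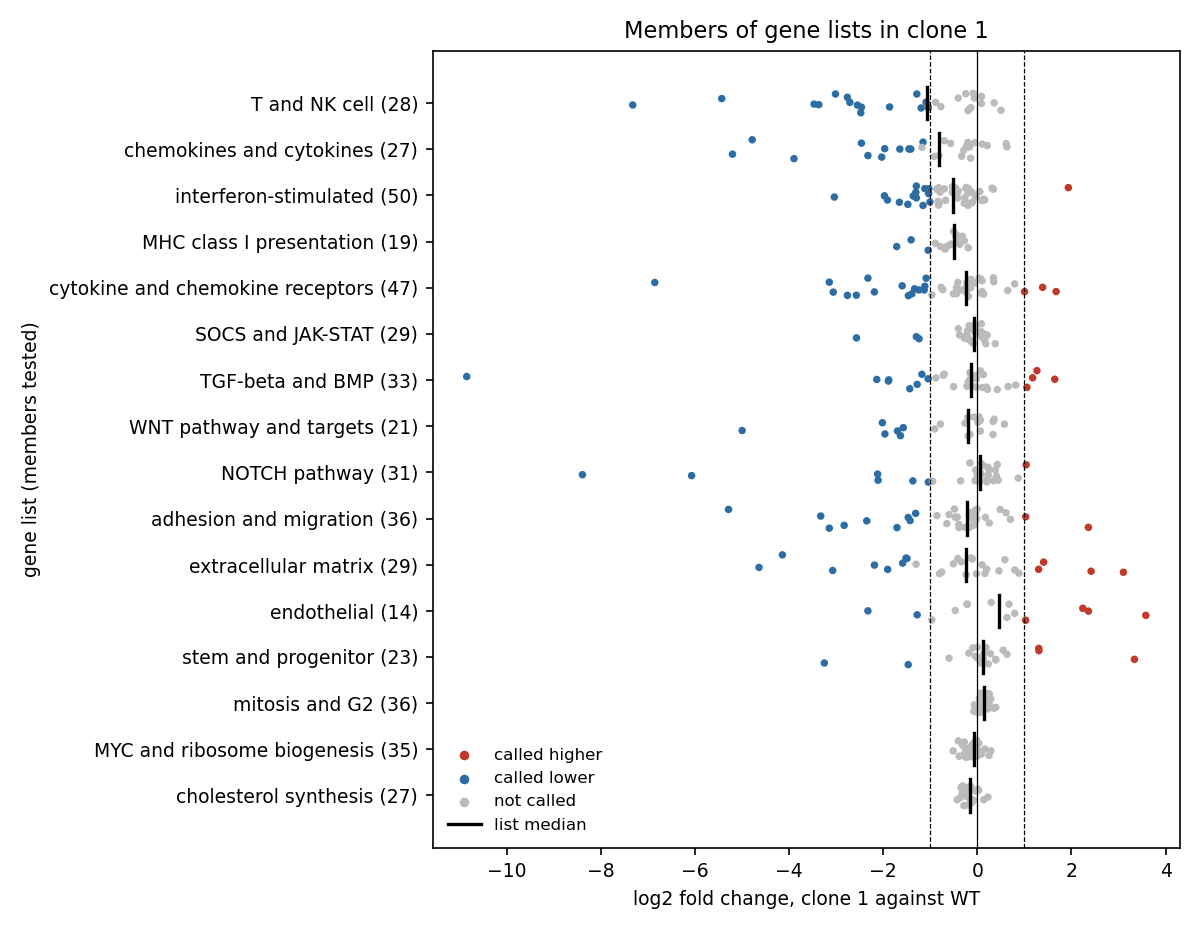
Log2 fold change of clone 1 against WT (x) of the tested members of 16 gene lists (y, with the number tested); points are genes, vertical bars are list medians and dashed lines mark the fold minimum. The medians of the T and NK cell, cytokine, interferon and MHC class I lists lie at -1.07, -0.81, -0.52 and -0.50, while those of mitosis, ribosome biogenesis and cholesterol genes lie at 0.13, -0.07 and -0.16 with 0 members called.

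The TGF-beta and NOTCH lists held calls in both directions. Of 33 TGF-beta and BMP genes, 8 were called lower and 4 higher (median -0.14). Next to SMAD1, SMAD6 and TGIF1, the coreceptor ENG fell from 120 ± 3.58 to 49.3 ± 0.761 CPM and the target ID2 from 74.1 ± 1.98 to 27.4 ± 0.728 CPM, while the inhibitor SMAD7 rose from 18.8 ± 0.530 to 39.1 ± 1.63 CPM and the target ID3 from 2.10 ± 0.289 to 5.01 ± 0.266 CPM. The list held inhibitors and targets on both sides. Of 21 WNT genes, 6 were called lower and 0 higher, among them the secreted inhibitor NOTUM at -5.00 and the receptors FZD1 and FZD7 at -2.02 and -1.96. Of 31 NOTCH genes, 6 were called lower and 1 higher, and the ubiquitin ligases NEURL1 and NEURL1B, at 12.1 and 12.6 CPM in WT, were both among the nearly silent genes. Without regard to strand they were at -2.71 and -5.05, against -8.39 and -6.07.

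Adhesion and matrix genes also split. Of 36 adhesion and migration genes, 9 were called lower and 2 higher, and of 29 matrix genes 8 and 4. VCAN, a large proteoglycan, was at 18.8, 18.6 and 19.2 CPM in WT, 2.20, 2.33 and 2.18 CPM in clone 1 and 11.7, 11.1 and 10.9 CPM in clone 2. THBS1 fell from 9.86 ± 0.389 to 2.16 ± 0.0713 CPM and was not called without regard to strand (-0.70). LOX, the collagen cross-linking oxidase, rose from 0.152 ± 0.0730 to 1.33 ± 0.139 CPM and was not called without regard to strand (0.85). Of 14 endothelial genes tested, 4 were called higher and 2 lower, ENG at -1.28 and KDR, which was near 0 in both groups, at -2.33. PECAM1 was at 25.7, 27.2 and 25.8 CPM in WT and 52.4 to 55.3 CPM in clone 1, and CLEC14A rose by 3.58 on the log2 scale. The 6 endothelial markers used as a check summed to 55.6 to 57.4 CPM in WT and 165 to 171 CPM in clone 1. Most of that rise was ESAM, from a mean of 19.9 CPM in WT to 102 CPM in clone 1. CDH5, a defining marker, had no count in either group.

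Lineage genes moved one by one. Of 23 stem and progenitor genes, 3 were called higher, TAL1, PROCR at 1.31 (from 0.132 to 0.336 CPM) and ADGRG1 at 1.30, and 2 lower, ITGA6 at -1.47 and HLF at -3.25. The call of PROCR was lost without clone 1 replicate 1 (1.32, edgeR adjusted p = 0.0864), with DESeq2 and without regard to strand (0.70). CEBPA, the myeloid transcription factor, was at 41.7, 40.5 and 44.4 CPM in WT and 18.2, 18.3 and 16.6 CPM in clone 1. ITGA2B, a megakaryocyte integrin chain, was at a mean of 435 CPM in WT and 647 CPM in clone 1 and did not reach the fold minimum. Of 7 erythroid genes that passed the filter, SPTB alone was called. Of 16 HOX genes and cofactors, 0 were called by edgeR, with 7 higher and 3 lower at the adjusted p.

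Genes of mitosis, of ribosome assembly and of sterol synthesis shifted by less than the fold minimum. Over all genes tested, 17.4% were higher than WT and 18.8% lower at the adjusted p. Of 36 genes of mitosis and G2, 0 were called, yet 22 were higher and 0 lower at the adjusted p (median 0.13), and 28 of 36 were higher in clone 1 than in clone 2 at the adjusted p (12.6% of all genes). Of 28 G1 genes, 1 was called, the cyclin CCND1, at 0.374 CPM in WT and 0.135 CPM in clone 1 (log2 fold change -1.47), and it was at -0.05 and not called without regard to strand. BUB1, a spindle checkpoint kinase, was at 146, 142 and 150 CPM in WT and 165, 160 and 161 CPM in clone 1. Ribosome biogenesis genes went the other way, with 17 of 35 lower and 3 higher than WT and 29 of 35 lower than clone 2 (13.4% of all genes). NOP56, a box C/D snoRNP protein, was at 209, 193 and 207 CPM in WT, 172, 174 and 168 CPM in clone 1 and 206, 208 and 208 CPM in clone 2. Of 27 cholesterol synthesis genes, 18 were lower and 1 higher than WT, and 20 were lower than clone 2.

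Along the chromosomes, the tested protein-coding genes were read in windows of 25 neighbours. The highest median was that of the window from PCDHB14 to PCDHGC5 on chromosome 5, at 0.73 in clone 1 and 0.67 in clone 2. The other windows named as highest were at 0.24 or below, and the lowest was at -0.28 (NR1H2 to ZNF432, chromosome 19). The gamma protocadherins of this cluster are cell-surface adhesion proteins best known from neurons. Of its 25 genes 23 were above 0, 17 were higher at the adjusted p and 6 were called, among them PCDHGA7, from 1.72 ± 0.331 to 4.12 ± 0.207 CPM, and PCDHGA5, from 2.93 ± 0.424 to 6.21 ± 0.981 CPM (SD, n = 3). Genes of the cluster share their last exons and overlap, and pairs that were ambiguous between genes entered no gene's count. Whether the genes of the cluster moved independently of each other was not tested. The median was 0.78 without regard to strand and 0.69 without clone 1 replicate 1. The 4 lowest windows included that from POU2F1 to SCYL3 on chromosome 1, which holds CD247, XCL1 and XCL2, all called lower. Over whole chromosomes, the lowest median was -0.10, on chromosome 21, which carries PRMT2. There 11 genes were called lower and 0 higher of 119 tested, beside 723 and 297 of all 12754 protein-coding genes tested. The share called in either direction, 9.24%, was below that of chromosomes 5 (10.85%), 4 (10.36%), 15 (10.02%), 18 (9.58%) and 13 (9.38%). It was above that of the remaining chromosomes. Whether chromosome 21 departs from the others was not tested.

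**Figure D5:**
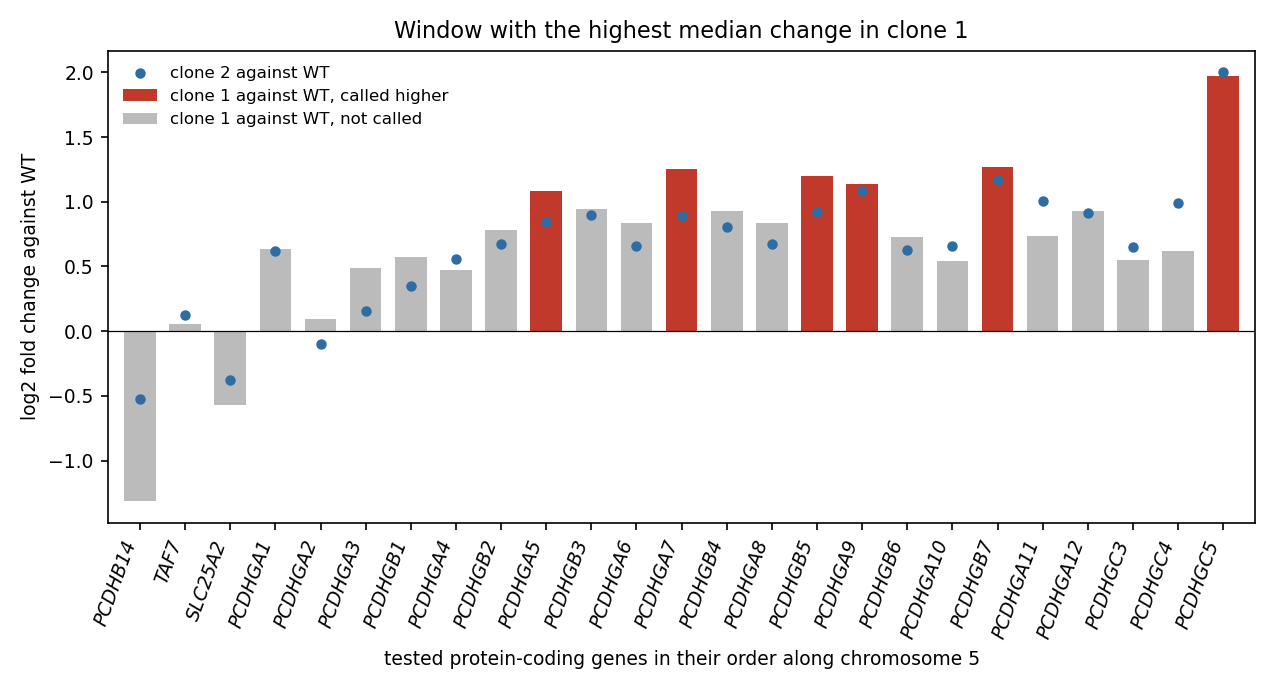
Log2 fold change against WT (y) of the 25 tested protein-coding genes of the window, in their order along the chromosome (x); bars are clone 1, red where called, and points are clone 2. All genes named PCDHG lie above 0 in clone 1, the tallest bar being PCDHGC5 at 1.97, which was not called without regard to strand.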

How the data were processed

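Total RNA of KG-1a cells was sequenced as paired-end libraries. The authors deposited counts of read pairs per gene for each library, made with STAR in 2-pass mode on GRCh38, per the labels and the series text. The STAR version and the annotation release are not given in the sources used here. Each deposited file holds counts without regard to strand and counts for each strand. The counts of the strand that held 92.03% to 92.31% of stranded pairs were used. Depth was 28006342 to 43149410 counted pairs, and a floor of 3 counts is used for lower bounds. Intervals and floors cover counting error only.

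Genes were filtered with filterByExpr, scaled by TMM and tested with edgeR 4.0.16 (quasi-likelihood, robust, R 4.3.3) on all 9 libraries with 1 coefficient per group. Clone 1 was contrasted with WT and with clone 2, and clone 2 with WT. A call needed an adjusted p under 0.05 and a log2 fold change of at least 1 in size. Each SE is approximate, the size of the log2 value over the root of its F statistic. DESeq2 1.42.0, another scaling, other filters, unstranded counts, a replicate term and leaving out each library were the alternatives. The fit was tested on simulated data.

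The members and the 58 gene lists were chosen with earlier results of these data known. Of 1759 listed genes 1756 were found and 1410 were tested. The naming rule took the PRMT family, the 15 largest rises and falls by log2 fold change and the 8 by CPM among called genes of at least 5 CPM whose groups did not overlap, up to 10 genes per direction that differed from clone 2 alike, up to 4 called members of each list, the 4 highest and lowest windows, genes apart in clone 1 replicate 1 and genes at 0 counts in one group. Not every gene so named is reported. Other genes were chosen after their values were seen. Promoters come from RefSeq. Symbols came from the authors' deposited table, of which 18 columns of per-sample values were not used. Positions came from GENCODE release 44, which held 60463 of 60605 identifiers. Some results are not reported here.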

Additional observations from a re-analysis of the deposited data

Results flagged for a closer look

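The following genes differed between the clones by the edgeR test of clone 1 against clone 2 itself. Among the genes named for their rise, the log2 difference of clone 1 from clone 2 was 6.35 for RBPMS, 4.36 for GREB1, 1.48 for TUSC3 and 1.34 for OTOGL. Among those named for their fall it was -5.46 for DNTT, -11.22 for SMAD1, -8.27 for NAV2, 4.06 for RBPMS2 and -1.005 for HLA-B. The values of DNTT, SMAD1, NAV2 and RBPMS2 rest on groups with 0 or 1 counts, depend on the prior count of the fit and are no bounds. DNTT and RBPMS2 were nearly silent in both clones.

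Genes named for a difference from clone 2 were at 1.74 for TMIGD2, 1.515 for CLIC4, 1.12 for TNFRSF10A, 1.11 for CDCP1 and 1.01 for XXYLT1-AS2. The lower ones were at -4.91 for ARNTL, -4.71 for EPB41L5, -3.57 for SELENON, -2.15 for TGIF1, -2.01 for ARHGAP10, -2.003 for LRP1B, -1.96 for GLDC, -1.93 for CDH6 and -1.91 for ITGB3. The part of single-clone effects in these differences was not tested.

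Outside the gene counts, 13.33% of the read pairs of KO clone 1 replicate 1 were multimapping, while the WT libraries had 3.86% to 4.34%.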

How the results depend on the processing

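The number of genes called in clone 1 against WT lay between 1523 and 1624 when single libraries were left out, and that between the clones between 554 and 591. PRMT2 lay between -0.95 and -0.91 on the log2 scale. With DESeq2, 1488 genes were called, and 1485 were shared in direction. With only the clone 1 and WT libraries in the fit, 1441 were called, and 1424 were shared. Without regard to strand 1752 were called, of which 1291 were shared. Only a filter of 5 CPM in 3 libraries moved the counts by over 1.5 times, to 484 (146 higher, 338 lower) and, between the clones, to 148 (52 higher in clone 1, 96 lower), since it tests fewer genes. Of 230 results on named genes, 198 kept direction and side of the threshold in each alternative run. TP53INP1 reversed without regard to strand, at 0.10 against -1.24 on the log2 scale. Over the alternative runs, list medians stayed within the SD between clone 1 libraries 687 times and moved further 123 times. Counts of called list members stayed within 1.5 times 225 times and moved further 13 times.

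Replicate numbers did not pair the samples: the correlation of deviations between same-numbered libraries of clone 1 and the other groups was -0.014 to 0.011. With a replicate block, 1557 genes were called (536 higher, 1021 lower), 577 between the clones, and PRMT2 was at -0.93.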

Other observations

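Some other lists are given by counts, to be read beside the shares over all genes of 2.6% called higher and 4.98% called lower. At the adjusted p alone those shares were 17.4% and 18.8%. Of 25 ABC transporters 5 were called lower and 0 higher. Among them was the cholesterol exporter ABCA1, at 39.2, 38.8 and 38.9 CPM in WT and 11.2, 11.9 and 10.3 CPM in clone 1. The drug efflux pump ABCG2 fell from 1.96 ± 0.483 to 0.506 ± 0.0612 CPM (SD, n = 3). Of 29 nuclear receptors and coactivators 3 were called lower and 2 higher. The fatty acid sensor PPARA was at 6.52, 6.85 and 6.62 CPM in WT, 0.439, 0.310 and 0.276 CPM in clone 1 and 0.315, 0.320 and 0.327 CPM in clone 2. Of 10 tested genes of the Prader-Willi and Angelman region 4 were called lower, ATP10A, SNHG14, SNRPN and NIPA1, and 1 higher. The gene called higher was CYFIP1, a regulator of actin and translation, at 11.4 to 13.5 CPM in WT, 61.2 to 66.5 CPM in clone 1 and 26.8 to 28.0 CPM in clone 2. Of 20 heat shock genes, the chaperone partner BAG3 was called lower, from 9.23 ± 0.599 to 0.885 ± 0.297 CPM, and HSPB1 higher. Among 45 DNA replication genes 0 were called by edgeR, with 17 higher and 8 lower at the adjusted p.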
